A study of Homo sapiens with 5 samples.

Results

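The 80 gene symbols studied here are those that begin with MRPL or MRPS and a number, the names of the proteins of the mitochondrial ribosome. They were picked by symbol alone from the 27189 genes of the series. Among them are 76 protein genes, of which 49 belong to the large subunit and 26 to the small subunit, and MRPS36 is now counted as a part of the 2-oxoglutarate dehydrogenase complex. The other 4 symbols are the pseudogenes MRPS31P5, MRPL42P5 and MRPL45P2 and the antisense RNA MRPL23-AS1.

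Mitochondria carry their own small genome, and the messages it encodes are translated by a ribosome that differs from the cytosolic one. Its ribosomal RNAs are made inside the organelle, whereas all of its proteins are encoded in the nucleus, made in the cytosol and imported. Nearly all products of this ribosome are core subunits of the respiratory chain and ATP synthase, so its proteins are needed in every cell that respires. Part of them descend from bacterial ribosomal proteins, and the rest are found only in mitochondria.

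Transcripts were measured by RNA-seq in HT1080, a human fibrosarcoma cell line, embedded for 24 h in type I collagen at 2 mg/ml. Cells at 10 cells/mm3 received no cytokine (LD), recombinant IL-6 (IL-6), recombinant IL-8 (IL-8) or both in a ratio of 5:2 (RM), and untreated cells at 50 cells/mm3 formed the high-density condition (HD). All 5 conditions shared the line and the collagen, and each was 1 library from 1 experiment, so no difference below has a replicate check and no test of one condition against another was possible. Between 926376 (HD) and 7118545 (LD) reads were counted per library. The 5.8S ribosomal RNA gene RNA5-8S5 took 51.5% of them in HD and 76.9 to 79.6% in the others, and it was left out of the scaling, which left 449661 reads in HD and 1100967 to 1645539 elsewhere.

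Levels are given as TPM, the abundance of a transcript after correction for its length on a scale that sums to 1000000 in a library, or as CPM, reads out of 1000000 with no such correction, both without RNA5-8S5. Intervals are exact 95% intervals of the read counts. They cover counting error only, since reads of an amplified cDNA pool without molecular identifiers are not independent molecules. A difference between libraries is the difference in log2(TPM + 1), which understates the change of low genes, and a member was counted as higher or lower from 1 log2 unit on. All 80 members passed the minimum of 1 TPM in at least 1 library, as did 21313 genes in all.

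The start regions of the genes are shown first because members of this family share short motifs there that the choice of symbols did not use. RefSeq promoter windows (build GRCh38.p14, from 250 bases before to 50 bases after the start) were matched for 68 of the 76 protein genes, and for 15843 protein-coding genes in all. The motif AAGATGGCG, a core of the YY1 site, lay on either strand of 13 of the 68 windows (19.1%), against 2.74% of all windows and 8.82% of those of 68 cytosolic ribosomal protein genes. Of its 14 matches, 12 read forward and 10 began at or after the start site, with a median first base at 9.5. The matches are shown on the gene's strand in 30 bases each, with the motif or its reverse complement in capitals, because most of them lie at or just behind the start:
MRPL42, chr12:93467512-93467541 (plus strand): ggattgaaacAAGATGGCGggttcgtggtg
MRPL52, chr14:22829779-22829808 (plus strand): acgatgacccAAGATGGCGgagccgtgatt
MRPL52, chr14:22829813-22829842 (plus strand): acccagattcAAGATGGCGacttcctgctt
MRPL46, chr15:88467361-88467390 (minus strand): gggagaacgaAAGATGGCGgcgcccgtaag
MRPL38, chr17:75904859-75904888 (minus strand): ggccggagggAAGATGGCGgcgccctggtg
MRPL36, chr5:1799854-1799883 (minus strand): ccccccccgcCGCCATCTTccttcctggca
MRPS30, chr5:44808950-44808979 (plus strand): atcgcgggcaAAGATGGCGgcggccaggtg
MRPL22, chr5:154941093-154941122 (plus strand): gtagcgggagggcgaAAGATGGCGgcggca
MRPS18B, chr6:30617853-30617882 (plus strand): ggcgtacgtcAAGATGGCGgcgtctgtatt
MRPS10, chr6:42217833-42217862 (minus strand): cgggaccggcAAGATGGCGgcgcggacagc
MRPS18A, chr6:43687763-43687792 (minus strand): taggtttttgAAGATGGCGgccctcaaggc
MRPL32, chr7:42932143-42932172 (plus strand): acccgcgctcCGCCATCTTtacccgaagag
MRPS24, chr7:43869479-43869508 (minus strand): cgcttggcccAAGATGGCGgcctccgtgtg
MRPL50, chr9:101398576-101398605 (minus strand): gatctcatcgAAGATGGCGgcgcgatctgt

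MRPL52 held the motif in 2 places before its start, and MRPL36 and MRPL32 held the reverse complement, also before the start. In the remaining windows the motif began between 7 and 36 bases from the start.

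The ETS motif CCGGAAGT, a core read by GABPA among others, was in 11 of the 68 windows (16.2%), in the same share of the cytosolic ribosomal protein windows and in 6.19% of all windows. It lay mostly before the start, with a median first base at -39, and MRPL27 and MRPS22 held 2 matches each. The NRF1 core GCATGCGC was in 6 windows (8.82%, against 2.94% of cytosolic and 4.26% of all windows). GGGCGG, the SP1 box, was in 61.8% of the members' windows and 58.5% of all windows, and the E-box CACGTG in 10.3% and 8.88%. A match describes the letters only, and no binding was measured. Motifs were searched on both strands, and the median GC content was 60.2% in the members' windows and 62.7% in all.

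**Figure D1:**
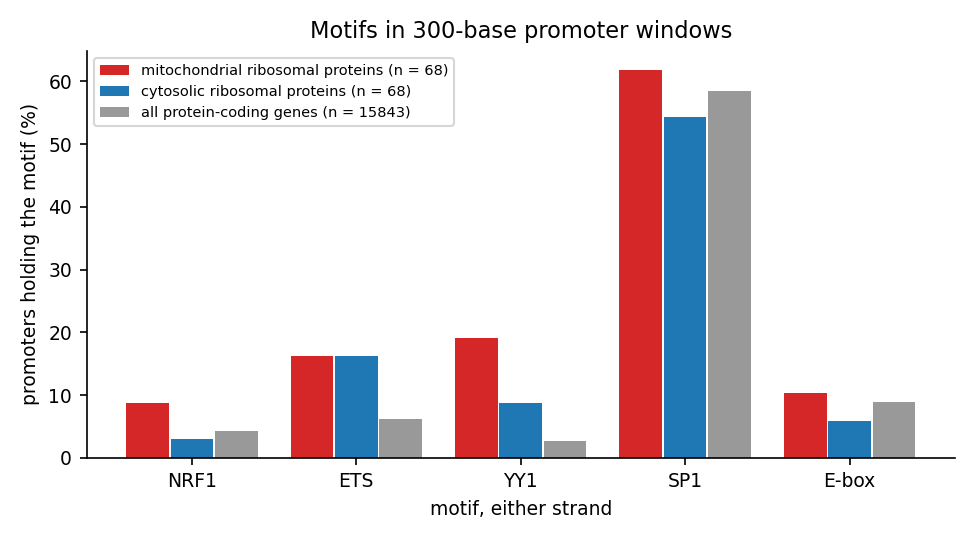
Share of promoter windows (percent) that hold each of 5 motifs on either strand, for 68 mitochondrial and 68 cytosolic ribosomal protein genes and for 15843 protein-coding genes of the RefSeq table. The YY1 bar of the mitochondrial genes stands at 19.1% against 2.74% for all genes, while the SP1 and E-box bars lie close together.

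The 250 bases before the start are printed whole for 5 members to which the results below return, with matches of any of the 5 motifs in capitals. They stand at chr17:81703117-81703366 (plus strand, MRPL12), chr10:100987498-100987747 (minus, MRPL43), chr17:75904885-75905134 (minus, MRPL38), chr21:34073328-34073577 (plus, MRPS6) and chr2:99180934-99181183 (plus, MRPL30):
MRPL12: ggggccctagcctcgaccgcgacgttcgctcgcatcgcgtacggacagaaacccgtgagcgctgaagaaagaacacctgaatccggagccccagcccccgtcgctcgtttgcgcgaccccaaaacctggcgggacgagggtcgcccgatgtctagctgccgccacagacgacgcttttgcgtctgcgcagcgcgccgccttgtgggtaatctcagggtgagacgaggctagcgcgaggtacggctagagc
MRPL43: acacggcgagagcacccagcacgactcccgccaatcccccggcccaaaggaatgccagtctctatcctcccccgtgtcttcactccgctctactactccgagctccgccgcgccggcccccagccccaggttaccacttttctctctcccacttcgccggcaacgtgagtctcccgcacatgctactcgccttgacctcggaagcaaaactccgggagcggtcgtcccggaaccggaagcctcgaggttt
MRPL38: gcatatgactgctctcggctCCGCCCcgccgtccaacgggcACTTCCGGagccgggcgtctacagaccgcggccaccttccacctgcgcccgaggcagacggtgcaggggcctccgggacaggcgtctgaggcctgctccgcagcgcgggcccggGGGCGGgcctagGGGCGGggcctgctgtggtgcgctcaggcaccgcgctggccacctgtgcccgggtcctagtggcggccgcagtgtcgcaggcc
MRPS6: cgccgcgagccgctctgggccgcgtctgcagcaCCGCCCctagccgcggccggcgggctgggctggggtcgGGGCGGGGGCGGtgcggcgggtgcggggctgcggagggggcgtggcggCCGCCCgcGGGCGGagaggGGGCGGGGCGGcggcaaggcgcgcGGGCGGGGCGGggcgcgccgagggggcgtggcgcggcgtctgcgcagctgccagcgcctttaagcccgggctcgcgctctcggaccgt
MRPL30: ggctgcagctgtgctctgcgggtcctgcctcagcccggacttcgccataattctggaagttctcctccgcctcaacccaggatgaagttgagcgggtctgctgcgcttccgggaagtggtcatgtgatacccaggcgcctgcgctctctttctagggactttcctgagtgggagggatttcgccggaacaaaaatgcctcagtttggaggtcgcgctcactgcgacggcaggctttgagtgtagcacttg

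MRPL12, MRPL43 and MRPL30, whose patterns over the libraries differ, had none of the 5 motifs in these 250 bases. MRPL38 held 3 SP1 boxes and 1 ETS motif there and MRPS6 held 9 SP1 boxes, some of which overlap or touch. Across the matched members, carriers and non-carriers of the YY1 motif had median differences from LD of 0.23 and -0.01 in IL-6, -0.43 and -0.42 in IL-8, -1.05 and -0.46 in RM and -0.80 and -1.48 in HD. The side on which the carriers lay thus turned from one comparison to the next. For the 6 carriers of the NRF1 motif the medians were 0.01, -0.76, 0.22 and -0.79, and for the 62 others 0.06, -0.41, -0.56 and -1.38.

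The genes lay on 21 chromosomes in the GENCODE 29 annotation, with at most 8 on one of them. A coding gene on the other strand began within 1000 bases upstream, or overlapped the start by up to 300 bases, for 20 of 76 (26.3%), against 9.67% of 19909 coding genes. Exons of 27 members overlapped exons of another coding gene, and 24 overlapped a gene on the opposite strand. Since the strand setting of the counting is not given, reads of such partners cannot be told apart. On the same strand, 606 of the 787 exon bases of MRPS24 also belong to the read-through gene URGCP-MRPS24, 471 of 1845 in MRPS17 and 471 of 1122 in MRPS28 to other genes, 223 of 1960 in MRPL28 to TMEM8A, and 176 of 990 in MRPS6 to SLC5A3. On the opposite strand, 1296 of 1643 exon bases of MRPS18C overlap ABRAXAS1, listed as FAM175A, 463 of 1551 in MRPL51 overlap NCAPD2, 290 of 1701 in MRPS22 overlap PRR23A, 359 of 2902 in MRPS7 overlap GGA3 and MIF4GD, 604 of 1062 in MRPS18A overlap RSPH9, and 92 of 2188 in MRPL2 overlap KLC4. Some other partners are named beside the member's values.

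In LD, the level of the 76 protein genes ran from 1.5 to 544 TPM with a median of 44.7 TPM. The highest mean levels over the 5 libraries belonged to large-subunit proteins: MRPL12, MRPL43, MRPL52, MRPL14, MRPL20, MRPL24, MRPL51, MRPL28, MRPL2 and MRPL38 in falling order. The mean level of the large-subunit proteins was 114 TPM and that of the small-subunit proteins 59.6 TPM in LD, while the medians were 47.8 and 41.1 TPM, so the gap lay in the most abundant members. In each library the 5 members with most reads there took a large part of the reads of the protein genes, 26.9% in LD and 38.6% in both IL-8 and RM.

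The order of the members was alike in the 4 low-density libraries and less so in HD. Spearman's rho with LD across the 76 protein genes was 0.90 for both IL-6 and IL-8, 0.86 for RM and 0.54 for HD. These are descriptions across genes of the same libraries, and in HD 50 of the 76 had under 10 reads. By CPM, IL-6 was the highest library for 24 members, LD and RM for 17 each, IL-8 for 12 and HD for 6, whereas HD was the lowest for 49. The same count was not made over all genes, so it cannot show what is particular to the family.

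**Figure D2:**
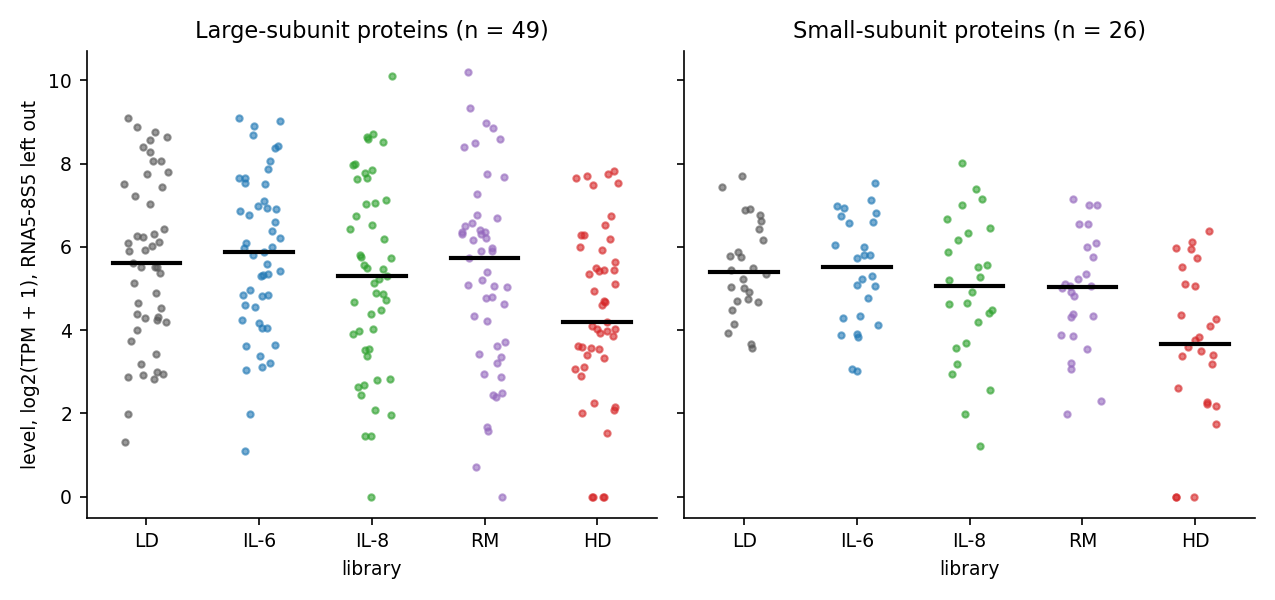
Level of each protein member, log2(TPM + 1) with RNA5-8S5 left out, by library, for the 49 large-subunit and 26 small-subunit proteins. Points are genes and bars medians, with random sideways spread. The large-subunit medians are 47.8 TPM in LD and 17.4 TPM in HD, and points at 0 are genes with no read.

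Summed over all 80 members, the share of reads was nearly the same in the low-density libraries and lower in HD. The 7123 reads in LD made up 0.433% (0.423 to 0.443) of the reads outside RNA5-8S5. With cytokine it was 0.444% (IL-6), 0.442% (IL-8) and 0.477% (RM, 0.466 to 0.489). In HD 872 reads gave 0.194% (0.181 to 0.207). Against LD the share was 1.02-fold in IL-6 (0.988 to 1.06), 1.02-fold in IL-8 (0.986 to 1.06), 1.10-fold in RM (1.07 to 1.14) and 0.448-fold in HD (0.417 to 0.481). The first 2 intervals hold 1. Without MRPL43 the RM ratio was 1.00, without the 5 members with most reads 0.933, and with TPM in place of reads 0.997. With RNA5-8S5 kept in the library totals the HD ratio was 0.941, as that RNA took a smaller share of the HD reads.

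The summed read share of the cytosolic ribosomal protein genes was likewise highest in RM and lowest in HD. By single genes, the median difference of RM from LD was -0.37, and 61 of the 86 lay below 0. That is near the general share: of the 9777 genes with at least 10 reads in either library, 71% lay at or below 0. The median of those genes was -0.63. The 86 genes together took 7.90% of reads in LD, 7.90% under IL-6, 8.29% under IL-8, 9.30% under RM and 1.86% in HD. The HD to LD ratio was therefore 0.235 (0.230 to 0.240) for the cytosolic and 0.448 for the mitochondrial family, or 0.399 (0.370 to 0.429) for the 76 protein genes alone. The intervals of the families do not overlap, but with 1 library a condition this says nothing of how the ratio would vary between cultures.

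**Figure D3:**
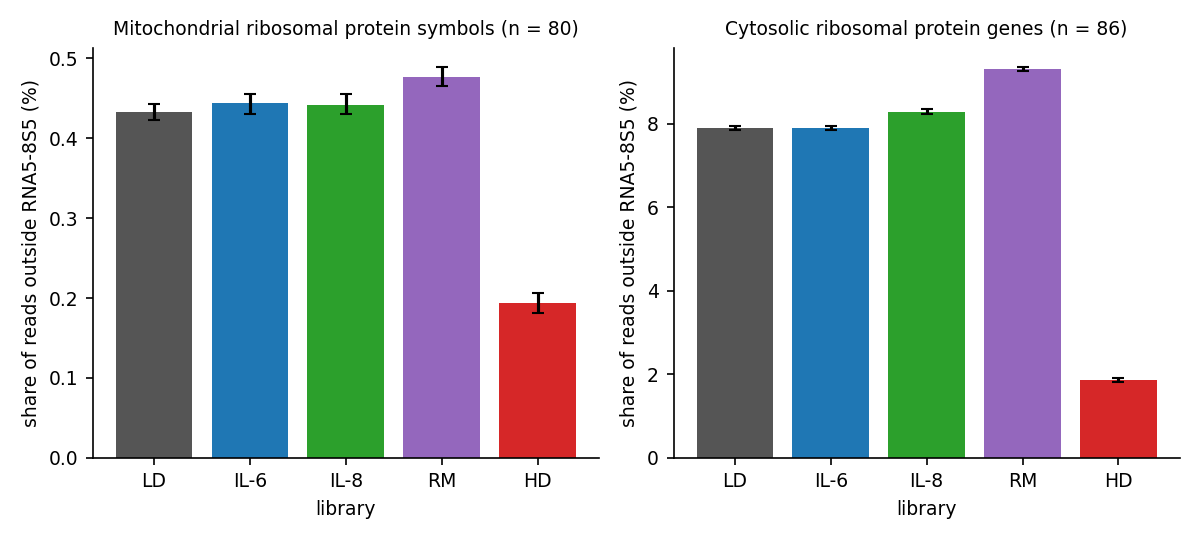
Share of reads outside RNA5-8S5 (percent) taken by the 80 mitochondrial ribosomal symbols and by 86 cytosolic ribosomal protein genes in each library, with exact 95% counting intervals. Both axes start at 0. HD stands at 0.194% and 1.86%, below the 4 low-density libraries in both panels.

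In IL-6 the family as a whole stood where it did in LD, while single members differed. The median difference from LD was -0.00, equal to that of all genes tested (0.00). At least 1 log2 unit higher were 9 members and lower 5, that is 11.2% and 6.25%, against 12.2% and 8.42% of all genes. With the further condition that the counting interval of the read ratio excluded 1, 8 were higher and 2 lower, against 6.14% and 4.36% of all genes. On CPM in place of TPM, 2 in place of 5 members were lower. The large-subunit sum was 1.04-fold (0.994 to 1.08) and the small-subunit sum 0.978-fold (0.907 to 1.06) that of LD.

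MRPL2, the counterpart of the bacterial protein L2 at the peptidyl transferase centre, had its highest level in IL-6. Its level was 265 TPM in LD, 545 under IL-6, 197 under IL-8, 153 under RM and 33.5 in HD. IL-6 lies above the other 4 libraries, with a read ratio to LD of 2.07 (1.79 to 2.39) on 448 and 324 reads. Its neighbour KLC4 had 147 reads in IL-6 and 76 in LD. MRPL44, which has an RNase III fold, had 6 reads in LD and 21 in IL-6 (2.96 and 17.9 TPM), a difference of 2.26. MRPS17, the homolog of bacterial S17, was at 31.9 TPM in LD and 122 TPM in IL-6, and MRPL54, a protein without a bacterial homolog, at 24.0 and 62.9 TPM. On the lower side stood MRPL43 (119 against 337 TPM), MRPS28 (14.1 against 36.6 TPM) and, just short of 1 log2 unit at -0.97, MRPS6 (54.9 against 108 TPM).

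In the IL-8 library more members were lower than higher. The median difference from LD was -0.43, and 55 of 80 members lay below 0. The median was -0.41 over the 9742 genes with at least 10 reads in either library and 0.00 over all genes tested. Of those 9742 genes 65.4% lay at or below 0, and of the members among them 70.4%. Of the members, 5 were higher and 19 lower, 6.25% and 23.8% of them, against 9.4% and 18% of all genes. Beyond counting error these were 4 and 16, against 5.85% and 11% of all genes. Among genes with at least 10 reads in either library, 25.4% of the members and 27.1% of all genes were lower. Median-ratio scaling, which sets the typical gene equal between libraries, gave 9 higher and 10 lower on TPM, and 10 and 7 on read counts without length correction. A pseudocount of 5 gave 3 and 11. With this scaling and this pseudocount the shares of all genes were not computed. The summed read share was 1.02-fold with all members, 0.942-fold without the 5 with most reads and 0.919-fold without MRPL12 alone.

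MRPL12, whose copies form the flexible stalk that recruits translation factors, had 479 reads in LD, 359 under IL-6, 802 under IL-8, 383 under RM and 68 in HD, or 470, 520, 1101, 386 and 209 TPM. IL-8 stands above all other libraries, and the read ratio to LD was 2.46 (2.19 to 2.76). In GENCODE 29, 701 of its 1028 exon bases also belong to a read-through gene on the same strand. The 2 proteins at the base of the stalk had other patterns. MRPL11 was at 44.4, 23.2, 9.45, 33.0 and 9.05 TPM in LD, under IL-6, IL-8 and RM, and in HD, with a read ratio of 0.213 (0.0977 to 0.415) in IL-8. MRPL10, which holds the stalk, was at 75.9, 42.1, 51.8, 78.9 and 63.1 TPM, and only its IL-6 and IL-8 intervals excluded 1 against LD.

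Of the other members higher in IL-8, MRPL50, a mitochondria-specific protein, had 38 reads against 6 in LD (55.1 and 6.30 TPM), with a read ratio of 9.30 (3.90 to 26.9). MRPS24 was at 257 TPM against 85.9 TPM in LD, and MRPS27, a pentatricopeptide repeat protein, at 87.1 against 42.4 TPM. MRPL50 and MRPS24 also carry the YY1 motif shown above. The medians in IL-8 were -0.43 for carriers and -0.42 for non-carriers, and a role of the motif was not tested. MRPL38, a mitochondria-specific protein at the central protuberance, was at 221, 136, 365, 58.6 and 178 TPM in LD, under IL-6, IL-8 and RM, and in HD, highest in IL-8 and lowest in RM. Lower in IL-8 were MRPS14 (1.31 against 10.9 TPM), MRPS9 (2.95 against 14.2 TPM) and MRPL20, the counterpart of an early-assembling bacterial protein, at 230 against 544 TPM. MRPL46 had 14 reads in LD and none in IL-8, which puts it at least 3.18-fold lower when the IL-8 level is set to 3 reads.

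RM, which contained both cytokines, gave a count much like that of IL-8. Against LD, 7 members were higher and 19 lower (8.75% and 23.8%), where 7.11% and 22.5% of all genes were. Beyond counting error, 7 were higher and 16 lower, against 5.09% and 16.3%. The members' median of -0.48 compares with -0.63 over the 9777 genes with at least 10 reads in either library. Among those genes 36.1% of all and 22.5% of the 71 members were lower. Median-ratio scaling, which shifts RM up by 0.60 against LD, gave 13 higher and 7 lower on TPM, and 16 and 6 on read counts, while read counts without that shift gave 8 and 15. The balance of directions in RM thus turned with the scaling, which shifts all genes alike. Shares of all genes were not computed under it. A pseudocount of 5 left 12 lower.

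MRPL43, a mitochondria-specific protein of the large subunit, was the member that stood apart in RM. It had 314 reads in LD, 76 under IL-6, 142 under IL-8, 908 under RM and 16 in HD, which are 337, 119, 202, 1177 and 44.0 TPM. RM lies above the other 4, and IL-6 and IL-8 lie below LD. The read ratio of RM was 3.32 (2.91 to 3.78) to LD, 9.17 (7.25 to 11.7) to IL-6 and 5.00 (4.18 to 6.01) to IL-8. Exons of SEMA4G and of the helicase gene TWNK, listed as C10orf2, overlap its 2922 exon bases on the opposite strand. These overlaps sum to 887 bases over both genes. SEMA4G had 1 read in both LD and RM, and C10orf2 had 96 reads in LD and 26 in RM. Whether reads of these partners were counted with MRPL43 was not tested.

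MRPL40, also mitochondria-specific, had 12, 8, 3, 54 and 2 reads in LD, under IL-6, IL-8 and RM, and in HD, with a ratio of RM to LD of 5.16 (2.73 to 10.6). MRPS11 was at 128 TPM in RM against 44.2 in LD, MRPL9 at 94.4 against 40.6, and MRPL22, which lines the exit tunnel, at 80.9 against 34.0. MRPL54 was higher in RM (71.1 TPM) and in IL-6 than in LD. MRPS12, the decoding-centre protein in which streptomycin resistance arises in bacteria, had 65, 34, 47, 114 and 0 reads in LD, under IL-6, IL-8 and RM, and in HD, a ratio of 2.01 (1.47 to 2.77) in RM. Its exons overlap those of SARS2 on the opposite strand, whose own reads were 161 in LD and 110 in RM.

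**Figure D4:**
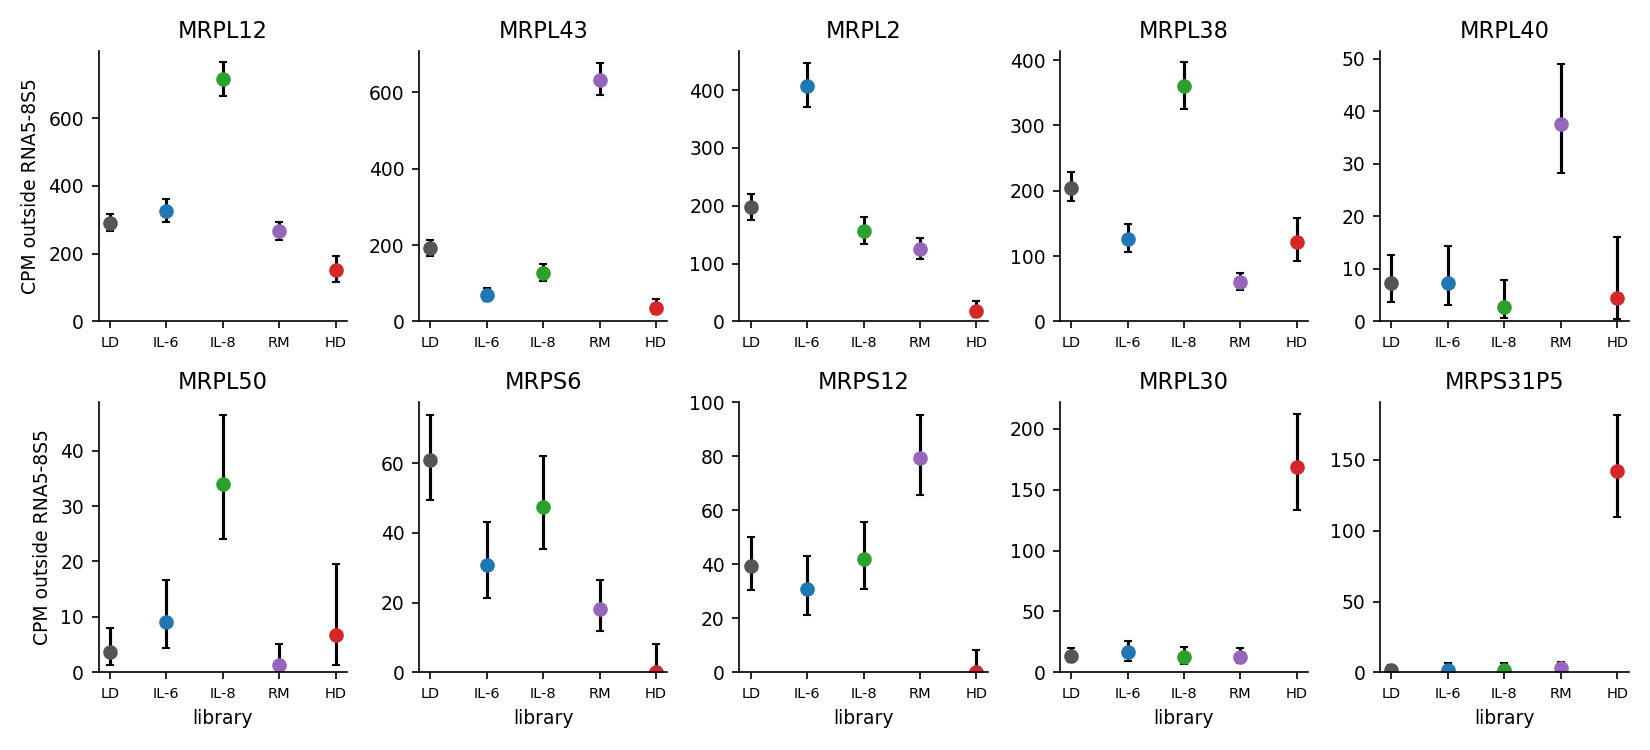
Level (CPM outside RNA5-8S5) of 10 members in the 5 libraries, with exact 95% Poisson intervals of the reads. Each panel has its own axis, from 0. MRPL12, MRPL38 and MRPL50 are highest in IL-8, MRPL43, MRPL40 and MRPS12 in RM, MRPL2 in IL-6, and MRPL30 and the pseudogene MRPS31P5 in HD.

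Lower in RM than in LD were MRPL38 (58.6 against 221 TPM), MRPS6 (29.4 against 108 TPM) and MRPL16 (4.65 against 17.9 TPM). MRPS6 had 100, 34, 53, 26 and 0 reads in LD, under IL-6, IL-8 and RM, and in HD, so LD was the highest library for it. MRPL48 had 6 reads in LD and none in RM, at least 1.74-fold lower with RM set to 3 reads. MRPS25 is a case where reads and TPM part: it had 64, 36, 20, 233 and 17 reads, a ratio of RM to LD of 4.18 (3.15 to 5.60), but 39.8 TPM in LD and 53.0 TPM in RM. The log2 read ratio exceeded the log2 TPM ratio by 1.65, the widest such gap among members with at least 20 reads in both libraries. Its exons overlap those of NR2C2 on the opposite strand.

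Set against each single cytokine, RM had more members lower than higher on this scale. Compared with IL-6, 10 members were higher and 26 lower (12.5% and 32.5%), against 6.92% and 26% of all genes, and the median was -0.59 where all genes had -0.19. With at least 10 reads in either library the medians were -0.61 for members and -0.63 for all genes, with 33.8% and 36.6% lower. Median-ratio scaling turned the count to 16 higher and 12 lower on TPM, and to 17 and 10 on read counts. Compared with IL-8, 12 were higher and 15 lower (15% and 18.8%), against 10.9% and 16.9%, and the median was 0.06. Median-ratio scaling gave 18 higher and 13 lower on TPM, and 18 and 9 on read counts. The scaled counts again have no shares of all genes beside them. MRPL43 and MRPL40 were among the 3 with the largest rise in both, of members with at least 20 reads in either library and an interval off 1. MRPS17 was at 8.33 TPM in RM and 122 TPM in IL-6, a read ratio of 0.0936 (0.0289 to 0.237), and MRPL1 at 6.39 and 27.5 TPM. MRPL50 was at 2.18 TPM in RM and 55.1 TPM in IL-8, and MRPS24 at 33.7 and 257 TPM. MRPS22 was at 39.9 TPM in RM and 4.93 TPM in IL-8, while IL-6 and LD lay between them at 13.3 and 21.4 TPM.

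**Figure D5:**
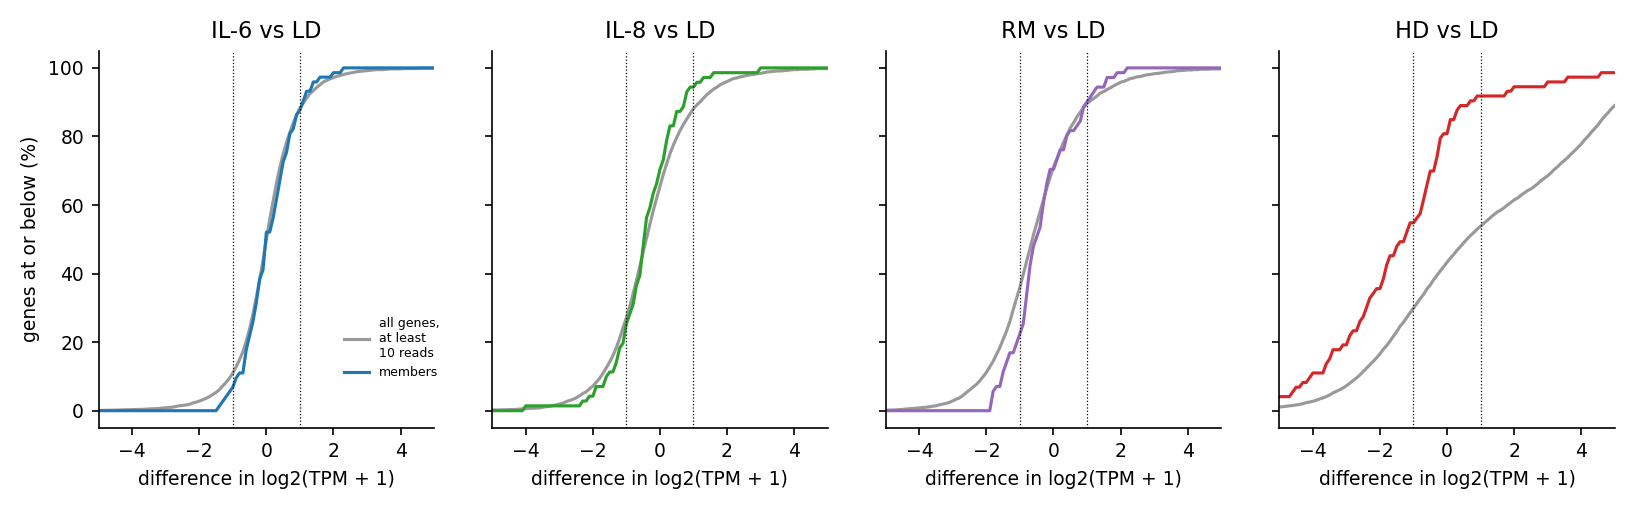
Cumulative share of genes (percent) against the difference from LD in log2(TPM + 1), for members (coloured) and for all genes (grey) with at least 10 reads in either library. Dotted lines mark 1 log2 unit in each direction. The curves lie close together for IL-6 and IL-8. In RM 22.5% of members and 36.1% of all genes lie at or below -1, and the curves stand apart for HD, with medians of -1.29 and 0.59. The grey HD curve includes genes that had at least 10 reads in HD alone.

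At high density most members were lower than in LD. The median difference was -1.18, with 41 of 80 members (51.2%) lower by at least 1 log2 unit, against 20.3% of all genes, and 9 higher (11.2%), against 60.1%. Beyond counting error, 35 were lower and 6 higher, against 16.2% and 42% of all genes. Among the protein genes alone, 41 were lower and 5 higher. Among genes with at least 10 reads in either library, the median was -1.29 for 73 members and 0.59 for all 12899. All genes tested include those that reached the minimum in HD alone, which can only be higher there. The set with at least 10 reads likewise takes in genes that reached them in HD alone. A read was found for 20112 genes in HD and for 14798 in LD. These shares and medians are thus no like-for-like yardstick for members expressed in LD. In bulk RNA, fewer cells of a kind and less RNA per cell cannot be told apart.

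The HD library stood apart from the others in ways that touch this result. It had the fewest reads, and 3 reads correspond to 6.67 CPM in it against 1.82 CPM in LD. Olfactory receptor genes, 386 of which are in the files, took 3643 CPM in HD with reads in 240 genes, against 21.6 to 75.4 CPM with reads in 14 to 37 genes elsewhere. The blood cell markers PTPRC, CD3E and HBB had 50 reads in HD together and 0 to 2 in each other library. Epithelial markers went both ways: CDH1 had 0 reads in LD and 34 in HD, EPCAM 0 and 3, and KRT19 132 and 13. KRT5 had no read in any library. Of the hepatocyte markers, ALB had no read in any library and APOA1 had 2 reads, in HD alone. The fibrosarcoma markers, 7 of 8 of which are in the files, kept reads in every library, but their read share in HD was 0.1 (0.0908 to 0.11) of that in LD, with all 7 lower. The part of these shifts in the members' difference was not tested.

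No read was found in HD for MRPS6, MRPS12, MRPL53, MRPL18, MRPL54, MRPL13, MRPS35 and MRPS36. With HD set to 3 reads, MRPS6, a small-subunit protein with 100 reads in LD, was at least 9.11-fold lower, MRPS12 at least 5.92-fold and MRPL53 at least 3.55-fold. MRPL18, whose bacterial counterpart binds 5S ribosomal RNA, had 20 to 36 reads in each other library and was at least 1.82-fold lower. MRPS12, MRPS6 and MRPL18 had at least 20 reads in all 4 low-density libraries. Of the most abundant members, MRPL51 had 226 reads in LD and 3 in HD, a ratio of 0.0486 (0.00994 to 0.144). Its neighbour NCAPD2 had 551 reads in LD and 15 in HD. MRPL2 had 324 and 8 reads, a ratio of 0.0904 (0.0387 to 0.180). MRPL20 and MRPL14 were at 91.4 and 77.5 TPM in HD against 544 and 430 TPM in LD.

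Other abundant members differed less. MRPL52 was at 226 TPM in HD against 395 in LD, MRPL28 at 184 against 265, and MRPL38 at 178 against 221. MRPL41, a mitochondria-specific protein, was at 213 TPM in HD against 172 TPM in LD, with a read ratio of 0.849 whose interval (0.460 to 1.48) holds 1. For MRPS27 the ratio was 0.839 (0.502 to 1.34).

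The members higher in HD were few. MRPL30 had 22 reads in LD, 18 under IL-6, 14 under IL-8, 18 under RM and 76 in HD, or 8.12, 11.5, 4.40, 4.28 and 106 TPM. HD lies above the others, which do not separate, and the read ratio to LD was 12.6 (7.78 to 21.3). Its exons, of 2797 bases, overlap those of 2 genes on the same strand in GENCODE 29. These overlaps sum to 944 bases, with a base under both genes counted for each. MRPL44 had 11 reads in HD against 6 in LD (29.9 and 2.96 TPM), MRPL15 27 against 32 (77 and 18.8 TPM) and MRPL23, next to the exit of the nascent chain, 27 against 40 (201 and 60.2 TPM). Their read ratios were 6.71 (2.27 to 22.1), 3.09 (1.78 to 5.32) and 2.47 (1.46 to 4.13).

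The 4 non-protein symbols held few reads outside HD. The pseudogene MRPS31P5 had 3, 2, 2, 4 and 64 reads in LD, under IL-6, IL-8 and RM, and in HD, a ratio of HD to LD of 78.1 (25.5 to 389). Its parent MRPS31 had 33, 16, 10, 17 and 1 reads, so the pseudogene was highest where the parent was lowest. MRPL45P2 had 5, 6, 2, 2 and 30 reads, with a ratio of 22 (8.44 to 72.5), while the membrane anchor MRPL45 had 75, 68, 38, 42 and 3. MRPL42P5 had at most 2 reads, and MRPL23-AS1 had 2 reads in HD alone and passed the minimum level only there. Together the 4 held 97 reads in HD and 6 to 9 elsewhere. Reads of near-identical copies can be divided between parent and pseudogene by the counting, so these values are uncertain.

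By read sums, the balance between subunits was furthest towards the large one in RM, and this rested on MRPL43. Reads of large-subunit proteins were 3.14 times those of small-subunit proteins in LD (2.97 to 3.31), 3.32 times in IL-6 (3.11 to 3.56), 3.52 times in IL-8 (3.29 to 3.76), 3.71 times in RM (3.50 to 3.93) and 3.56 times in HD (3.00 to 4.24). Only the RM interval lies clear of that of LD. By mean TPM, with MRPL43 included, the ratio was 1.92, 1.95, 2.01, 2.77 and 2.14. The part of MRPL43 in the mean TPM ratio was not tested, so the statement on MRPL43 holds for read sums alone. Without MRPL43 the read ratio was 2.95 in LD (2.8 to 3.12), 3.26 under IL-6 (3.04 to 3.48) and 3.39 under IL-8 (3.16 to 3.63). It was 3.08 under RM (2.90 to 3.27) and 3.46 in HD (2.92 to 4.13). Here only the IL-8 interval lies clear of that of LD. The medians of the subunits in RM, MRPL43 included, were 52.5 and 31.6 TPM. In RM the small-subunit TPM sum was 0.738-fold that of LD and the large-subunit sum 1.07-fold.

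The 46 members with a bacterial homolog and the 29 counted as specific to mitochondria had medians of the same sign in every comparison with LD: -0.02 and -0.01 in IL-6, -0.50 and -0.42 in IL-8, -0.61 and -0.39 in RM and -1.39 and -1.20 in HD. Their read sums parted in RM, with 0.968-fold (0.927 to 1.01) and 1.33-fold (1.26 to 1.40), MRPL43 being in the second set. The 3 paralogs of bacterial S18 were unlike in level, and MRPS18A and MRPS18B were counted in the mitochondria-specific set. MRPS18A, which sits in the large subunit, was at 78.3, 121, 90.6, 103 and 42.3 TPM in LD, under IL-6, IL-8 and RM, and in HD. MRPS18B was at 29.3, 38.4, 23.8, 13.6 and 9.56 TPM, and MRPS18C at 16.8, 7.36, 6.65, 3.94 and 9.38 TPM. In RM the read ratio to LD was 1.45 (1.08 to 1.94) for MRPS18A and 0.521 (0.291 to 0.904) and 0.255 (0.0628 to 0.774) for the other two. FAM175A, over the exons of MRPS18C, had 19 reads in LD and 2 in RM, where MRPS18C had 18 and 4.

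A few members with a known place in the ribosome complete the picture. MRPS30, also placed in the large subunit, had 47, 42, 25, 19 and 1 reads in LD, under IL-6, IL-8 and RM, and in HD. MRPS7, an early protein of the head of the small subunit, had 73, 59, 46, 42 and 1. MRPS36 had 10, 16, 7, 5 and 0. MRPL24, at the exit tunnel, was at 309, 234, 415, 500 and 60.0 TPM, highest in RM.

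The 7 proteins of this ribosome that carry other names were all in the files. AURKAIP1, a small-subunit protein, was at 548, 460, 757, 558 and 158 TPM in LD, under IL-6, IL-8 and RM, and in HD, and GADD45GIP1, a large-subunit protein, at 235, 218, 119, 131 and 152 TPM. MRP63 was at 453, 48.1, 12.7, 269 and 63.6 TPM, by TPM highest in LD and lowest in IL-8, on 114, 39, 12, 72 and 34 reads. Reads and TPM part for it in HD, where the read ratio to LD was 1.09 (0.721 to 1.61). Its place among the genes lower in HD below thus rests on TPM. DAP3, a GTP-binding protein of the small subunit, was at 33.1, 37.7, 22, 9.78 and 20.4 TPM. PTCD3 was at 9.68, 7.48, 9.64, 1.91 and 18.4 TPM and ICT1, a peptidyl-tRNA hydrolase of the large subunit, at 18.6, 31.1, 30.8, 33.6 and 0 TPM. CHCHD1 had at most 3 reads. Of the 7, none was at least 1 log2 unit higher in IL-6, IL-8 or RM than in LD and 1 was in HD, and 1, 2, 2 and 3 were lower (14.3%, 28.6%, 28.6% and 42.9%). Of all genes 8.42%, 18%, 22.5% and 20.3% were lower in these comparisons, and 12.2%, 9.4%, 7.11% and 60.1% higher.

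Factors that build and run the mitochondrial ribosome were counted in the same way. In HD 60.1% of all genes were higher and 20.3% lower, and the median was 1.85 over all genes tested. These include genes that reached the minimum level in HD alone. Of 20 assembly factors, 6 were higher and 6 lower in HD by 1 log2 unit or more (30% each), with a median of -0.16 and a read sum of 0.746-fold (0.652 to 0.852). DHX30, an RNA helicase, had 299, 107, 167, 213 and 37 reads in LD, under IL-6, IL-8 and RM, and in HD, and MTG2, a GTPase of the large subunit, 150, 92, 67, 181 and 47. Of 15 translation factors, 3 were higher and 5 lower in HD (20% and 33.3%), with a median of -0.27. TUFM, the elongation factor that brings aminoacyl-tRNA, was at 338, 347, 353, 497 and 119 TPM, and the initiation factor MTIF2 at 122, 129, 74.8, 101 and 29.2 TPM.

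In the cytokine libraries the assembly factors counted 1 higher and 2 lower in IL-6, 2 and 3 in IL-8 and 2 and 5 in RM. Their shares lower were 10%, 15% and 25%, against 8.42%, 18% and 22.5% of all genes. DDX28, a helicase of large-subunit assembly, was singled out after its values were seen: it had 4, 6, 4, 117 and 8 reads in LD, under IL-6, IL-8 and RM, and in HD. The translation factors counted none higher in IL-6, IL-8 and RM and 1, 3 and 4 lower (6.67%, 20% and 26.7%). Of all genes, 12.2%, 9.4% and 7.11% were higher in these comparisons. The 9 genes of mitochondrial transcription and genome maintenance counted none higher in these 3 libraries and 1, 5 and 2 lower (11.1%, 55.6% and 22.2%), and in HD 1 higher and 5 lower (11.1% and 55.6%). Among them TFAM, which packs mitochondrial DNA, had 244, 121, 203, 273 and 9 reads, and POLRMT, the mitochondrial RNA polymerase, 140, 110, 173, 130 and 6. Messages encoded by mitochondrial DNA were not analysed here.

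Of 9 regulators of mitochondrial biogenesis none was higher and 4 were lower in IL-6 (44.4%, against 8.42% of all genes), with a read sum of 0.507-fold (0.477 to 0.538) that of LD, and in HD 5 were higher and 3 lower (55.6% and 33.3%, against 60.1% and 20.3% of all genes). YY1, whose core motif was counted above, was at 1143 TPM in LD, 555 under IL-6, 1035 under IL-8, 792 under RM and 2307 in HD. It holds most reads of this list, so the read sums are largely its own. PPRC1, a coactivator related to PGC-1alpha, had 259, 130, 145, 111 and 16 reads. In IL-8 none was higher and 5 were lower (55.6%, against 18% of all genes), and in RM none and 3 (33.3%, against 22.5%).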

How the data were processed

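The data were 5 RNA-seq libraries of HT1080 cells, 1 per condition, made by oligo-dT priming, phi29 amplification of the whole cDNA pool and Nextera XT tagmentation. The authors deposited a read count per gene in whole numbers, not normalized, and a TPM value per gene, which takes out transcript length and sequencing depth. The submitters' processing notes name CASAVA 1.4, Bowtie2 2.3.1, RSEM 1.2.25 and the builds GRCh37 and hg19; annotation, strand setting and filters are not given in the sources used here. Priming on poly-A and amplification can favour some transcripts, and this was not corrected.

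Members were the symbols beginning with MRPL or MRPS and a number. The members, gene lists, motifs and tests were chosen with earlier results of these data known. Deposited TPM values (sums of 934821 to 978521) were rescaled to 1000000 without RNA5-8S5, and CPM are counts scaled to 1000000 reads outside RNA5-8S5. Differences are in log2(TPM + 1), after a minimum of 1 TPM in at least 1 of the 5 libraries, for 6 comparisons. The 4 with LD share that library, so agreement between them was not used. Counts have exact Poisson intervals, shares exact Clopper-Pearson intervals, and read ratios exact conditional intervals at 95%. A level of 0 allows up to 3 reads (1.82 CPM for LD, 6.67 CPM for HD).

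Genes were named by a rule: the 10 highest mean TPM, the 3 largest rises and falls in each comparison among members with at least 20 reads and an interval off 1, members without a read in 1 library only where the others have at least 20, members of known role or place, all non-protein symbols, and the 7 ribosomal proteins of other names with the 2 genes with most reads of each other list. Exceptions are MRPL9, MRPL15, MRPL22, MRPL46, MRPL48, MRPS25, MRPS31 and DDX28, the members listed without a read in HD and those whose promoters are shown, chosen after their values were seen. No count model was fitted, as there are no residual degrees of freedom. Scripts were tested on simulated data. Promoters come from RefSeq (GRCh38.p14) and neighbours from GENCODE 29 on GRCh38, not the build of the reads. Python 3.11.15, numpy 2.4.6, pandas 2.3.3 and scipy 1.17.1 were used.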

Additional observations from a re-analysis of the deposited data

How the results depend on the processing

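Each of 18 summaries (members higher, members lower and the summed read ratio in 6 comparisons) was recomputed under alternatives, of which leaving out MRPL43 or MRPL12, counting protein genes alone and median-ratio scaling of TPM were chosen after seeing the data. Of 162 values, 109 kept close to the reported one. In HD against LD the 41 members lower stayed within 1.5 times under each alternative run for counts, and the 9 higher under each but protein genes alone (5 higher, 41 lower).

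Median-ratio scaling was run on read counts without length correction, which changes both the unit and the scaling, and on TPM, which changes the scaling alone. On read counts, 3 members were then lower under IL-6 than in LD, 10 higher and 7 lower under IL-8, 16 higher and 6 lower under RM, 17 higher and 10 lower in RM against IL-6, and 9 lower in RM against IL-8. On TPM it gave 9 higher and 10 lower under IL-8, 13 and 7 under RM, and 16 and 12 in RM against IL-6. Relative to LD the scaling shifts all differences by -0.06 (IL-6), 0.34 (IL-8), 0.60 (RM) and 0.21 (HD). The summed read ratio to LD became 0.985 (IL-6), 1.30 (IL-8), 1.67 (RM) and 0.519 (HD), and 1.70 and 1.29 for RM against IL-6 and IL-8. MRPL30 turned from lower to 0.26 higher on the log2 scale in RM against IL-6 on the scaled read counts.

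At a threshold of 1.5-fold, 19 members were higher and 15 lower under IL-6, 10 and 31 under IL-8, 13 and 38 under RM, 40 lower in RM against IL-6, and 22 higher and 25 lower in RM against IL-8. A pseudocount of 5 gave 3 higher and 11 lower under IL-8 and 12 lower under RM, and CPM gave 2 lower under IL-6. Shares of all genes were not computed for these alternatives or for median-ratio scaling, so these counts have no background beside them.

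With RNA5-8S5 kept in the total, the summed ratio to LD was 0.958, 0.902, 1.00 and 0.941 for IL-6, IL-8, RM and HD, since HD held a smaller share of that RNA. Summed TPM gave 0.961 for IL-8, reversed RM against LD to 0.997 and against IL-6 to 0.985, and gave 1.04 against IL-8. Without the 5 members with most reads the ratio was 0.942 for IL-8, 0.497 for HD and, reversed, 0.933 for RM against LD, 0.920 against IL-6 and 0.990 against IL-8. Without MRPL43 it was 1.00 for RM against LD and, reversed, 0.948 and 0.963 against IL-6 and IL-8. Without MRPL12 it was 0.919 for IL-8 against LD and 1.22 for RM against IL-8. Protein genes alone gave 0.399 for HD. Other than where a member or gene was left out, the cause was not tested. No paired analysis was possible because each group is 1 library, and no replicate could be left out. In HD 50 of 76 protein members had under 10 reads, which limits the precision of single members there.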
